A study of Homo sapiens with 28 samples.

Results

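RNA was sequenced from LNCaP cells, an androgen-responsive line established from a lymph node metastasis of a prostate carcinoma. The comparison set 4 libraries of cells given the siRNA siATF4-3 and tunicamycin (TM siATF4-3) against 4 libraries of cells given a control siRNA and tunicamycin (TM siCtrl), 8 of the 28 libraries in the study, and the members were taken from the group labels alone. All groups were LNCaP cells at passages 10 to 15, grown in RPMI medium with 10% serum and reverse-transfected with siRNA. Treatment began 2 days after transfection, with tunicamycin at 2.5 µg/mL for 18 h. Beside them stand 4 libraries with the other ATF4 oligonucleotide (TM siATF4-2) and 4 with the control siRNA and vehicle (DMSO siCtrl). Their values are given only where the siATF4-3 values are set against them. The remaining libraries, 4 per group, also had tunicamycin: with control siRNA and an inhibitor of the kinase PERK, with siPERK-1, or with siPERK-3. All 28 libraries entered the filter on low counts, the scaling and the fit. The labels describe 4 independent experiments, in 1 cell line, and measured RNA only, so a gene's level here is a transcript level and not a protein level. The titles number the oligonucleotides 3 and 2 where the treatment labels call them oligo 2 and oligo 1, and the groups here follow the titles. The target site of neither oligonucleotide is given in the sources used here.

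ATF4 is a basic leucine zipper transcription factor whose translation rises when the kinase PERK, one of the sensors of the unfolded protein response, phosphorylates eIF2 alpha. Tunicamycin stops N-linked glycosylation at its first step, and unfolded proteins then build up in the endoplasmic reticulum (ER). With C/EBP family partners, ATF4 binds a composite element in genes for amino acid uptake and synthesis, tRNA charging and stress signalling, and it also raises the transcription factor CHOP (DDIT3). The other arms of the response, through IRE1 with XBP1 and through ATF6, drive chaperone and degradation genes of the ER.

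The 8 libraries held 10794637 to 13664563 assigned reads with siATF4-3 and 14052883 to 17253801 with siCtrl, and 17204 to 18086 genes had a read in a library. Of 25369 genes, 14314 passed a filter on low counts. The filter used all 28 libraries, so a gene could also pass through a group not compared. A gene that passed only through siATF4-3 or only through siCtrl libraries tended to differ between them. The counts below therefore describe tested genes and not all genes. Levels are CPM, TMM-scaled read counts relative to the library's assigned reads, and changes are log2 fold changes, siATF4-3 over siCtrl, with an approximate SE. A gene was called when edgeR's quasi-likelihood test gave a Benjamini-Hochberg adjusted p under 0.05 over all tested genes. A set of 10 luminal prostate markers stood at 4457 to 4671 summed CPM with siATF4-3 and 3530 to 3835 with siCtrl, but KRT8 within it lay lower with siATF4-3 (597 to 672 CPM) than with siCtrl (810 to 902 CPM), and KRT18 and EPCAM overlapped. A longer list of 18 luminal identity genes had a lower sum, 5644 to 5716 CPM with siATF4-3 and 5874 to 6091 with siCtrl. The defining markers of other cell types were at or near 0: TP63, COL1A2, DCN, CD3E and CDH5 had no read in the 8 libraries, and KRT5 and PTPRC reached at most 2 reads. The exceptions were VWF, at 8.74 to 12.2 CPM with siATF4-3 and 9.46 to 10.2 with siCtrl, and COL1A1, at 13.9 to 20.6 CPM with siATF4-3 and 32.2 to 39.3 with siCtrl. Other genes that fibroblasts share with many cells went the other way: VIM had 27.1 to 34.8 CPM with siATF4-3 and 12.6 to 17.4 with siCtrl, and FN1 had 137 to 165 CPM with siATF4-3 and 83.2 to 90.5 with siCtrl. In bulk RNA, fewer cells of a type and less RNA per cell cannot be told apart.

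The knockdown was seen in every library. ATF4, on chromosome 22 (hg19 chr22:39916564-39918691, plus strand), had 115, 98.5, 102 and 140 CPM with siATF4-3, against 1479, 1487, 1562 and 1517 CPM with siCtrl. All 4 knockdown libraries lay far below all 4 control libraries, and the change was -3.73 ± 0.17 (adjusted p = 6.25e-15). ATF4 also lay below its level in unstressed cells with the control siRNA. It averaged 114 ± 19.0 CPM with siATF4-3 and 605 ± 85.3 CPM in DMSO siCtrl cells (SD, n = 4 each). The change was -2.41 ± 0.16 in edgeR's test (adjusted p = 9.7e-12). EIF2AK3, which encodes PERK, had 79.3, 80.2, 80.5 and 83.6 CPM with siATF4-3, against 79.95, 95.2, 90.7 and 91.0 CPM with siCtrl. Its change of -0.14 ± 0.06 was not called (adjusted p = 0.0586 in edgeR's test), and the groups overlapped. It was called, at -0.15, when only the 8 libraries were fitted (edgeR adjusted p = 0.0203).

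Across all tested genes, 8862 (61.9%) were called, 4461 (31.2%) higher and 4401 (30.7%) lower with siATF4-3, and the median change of all genes was -0.001. Changes of at least 2-fold were less even: 403 genes (2.82%) were higher and 947 (6.62%) lower by that size. Groups that did not overlap were found for 27.6% of genes in the higher direction and 27.5% in the lower direction.

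**Figure D1:**
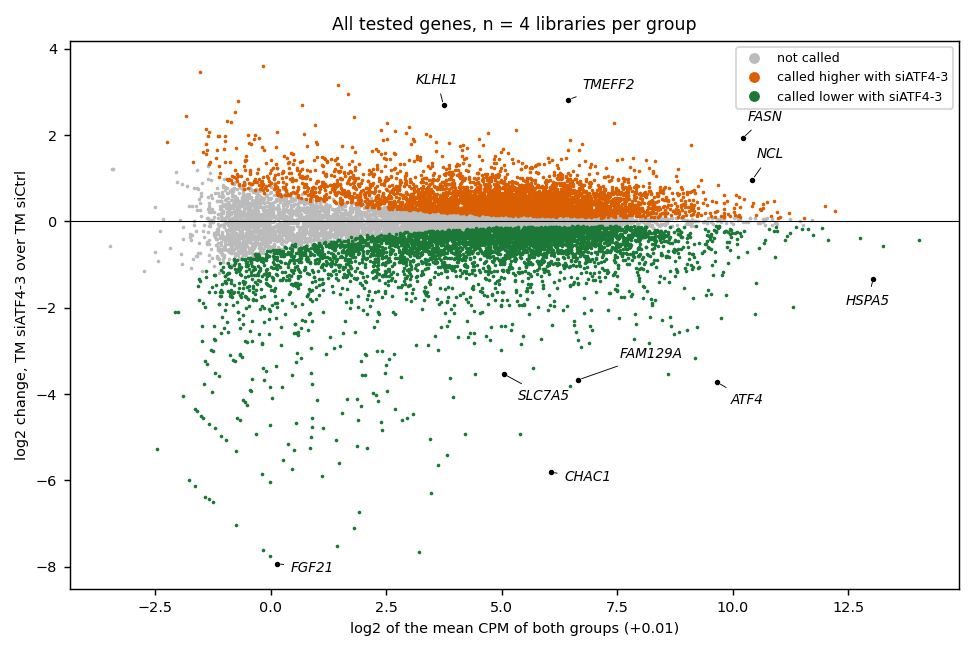
Log2 change, TM siATF4-3 over TM siCtrl, against the log2 mean CPM of both groups for all 14314 tested genes (4 libraries per group), with called genes coloured by direction. The lower side reaches further from 0 than the higher side: CHAC1 sits at -5.81, while TMEFF2 sits at 2.82; the fitted value of FGF21, which had 0 reads with siATF4-3, depends on the prior count.

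Promoter letters were read for the genes lowered most and for the list members named below, because ATF4 with a C/EBP partner is known to bind an element of the form TGATGNAA. Those 8 letters were searched on both strands in RefSeq promoters of build GRCh38.p14, which run from 250 bases before to 50 after each start. Printed here are the 250 bases before the start, on the gene's strand and 5′ to 3′, for 5 lowered genes chosen because they hold the letters, with the match in capitals. CHAC1 breaks down glutathione, FGF21 is a secreted metabolic hormone, ASNS makes asparagine, S100P is a calcium-binding protein and HERPUD1 serves ER-associated degradation.
CHAC1: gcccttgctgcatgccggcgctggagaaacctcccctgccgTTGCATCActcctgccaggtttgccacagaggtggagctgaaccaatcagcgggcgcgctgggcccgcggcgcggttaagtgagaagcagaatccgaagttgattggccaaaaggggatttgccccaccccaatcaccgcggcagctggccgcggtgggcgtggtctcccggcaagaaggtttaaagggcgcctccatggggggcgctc
FGF21: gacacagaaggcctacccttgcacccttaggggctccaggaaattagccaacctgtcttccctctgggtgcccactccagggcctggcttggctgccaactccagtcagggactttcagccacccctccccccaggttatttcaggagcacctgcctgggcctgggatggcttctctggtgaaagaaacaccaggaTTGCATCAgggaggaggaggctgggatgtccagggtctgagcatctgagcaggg
ASNS: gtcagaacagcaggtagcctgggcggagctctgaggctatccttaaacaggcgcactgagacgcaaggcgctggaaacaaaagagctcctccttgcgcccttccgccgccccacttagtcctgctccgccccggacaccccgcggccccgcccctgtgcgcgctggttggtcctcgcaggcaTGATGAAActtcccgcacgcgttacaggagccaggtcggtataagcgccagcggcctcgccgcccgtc
S100P: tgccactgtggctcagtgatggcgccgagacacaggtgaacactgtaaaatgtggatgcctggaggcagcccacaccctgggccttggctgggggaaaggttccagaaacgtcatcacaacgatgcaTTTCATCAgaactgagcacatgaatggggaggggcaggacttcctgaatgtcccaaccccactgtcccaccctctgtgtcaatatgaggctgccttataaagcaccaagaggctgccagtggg
HERPUD1: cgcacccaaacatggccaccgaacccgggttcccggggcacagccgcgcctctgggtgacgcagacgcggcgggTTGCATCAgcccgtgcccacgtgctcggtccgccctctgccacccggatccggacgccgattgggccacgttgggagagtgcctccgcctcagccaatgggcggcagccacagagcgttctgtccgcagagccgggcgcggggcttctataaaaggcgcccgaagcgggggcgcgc

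The match began 209 bases before the start in CHAC1 (chr15:40953221-40953470, plus strand), 54 in FGF21 (chr19:48755274-48755523, plus strand) and 68 in ASNS (chr7:97872409-97872658, minus strand). It began 123 bases before the start in S100P (chr4:6693628-6693877, plus strand) and 176 in HERPUD1 (chr16:56931892-56932141, plus strand). Over the window of 300 bases, 40 of 699 genes lower by at least 2-fold held the letters (5.72%, Wilson 95% interval 4.23 to 7.7). They stood in 5 of 292 genes higher by at least 2-fold (1.71%, 0.734 to 3.95), and in 203 of all 11183 tested genes with a promoter in the table (1.82%, 1.58 to 2.08). Among all genes called lower, whatever the size, 89 of 3472 held them (2.56%, 2.09 to 3.14). Among all called higher, 41 of 3591 did (1.14%, 0.843 to 1.55). Before the start, 3 of the 13 genes lowered most that have a promoter in the table held them, and 1 of the 12 raised most. Raised genes held them as well, among them KLHL1, SLC1A3 and PLK3. A match is a description of the letters and no measure of binding.

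The 15 genes lowered most, taken among called genes whose groups did not overlap and whose mean log2 CPM reached 1, ran from FIBIN (-6.29, and -7.51 without siATF4-3 replicate 4) to FUT3 (-4.03). CHAC1 had 1.53, 1.92, 1.44 and 4.29 CPM with siATF4-3, against 145, 124, 142 and 113 CPM with siCtrl, a change of -5.81 ± 0.37 (adjusted p = 3.3e-12). Replicate 4 stood above the other 3 knockdown libraries yet far below every control library. LCN2, which encodes the iron-sequestering secreted protein lipocalin, had 0.270, 0.427, 0.179 and 0.971 CPM with siATF4-3, against 20.7, 24.9, 23.7 and 27.2 CPM with siCtrl. S100P had 0.270, 0.640, 0.628 and 0.971 CPM with siATF4-3, against 23.9, 20.2, 19.97 and 21.1 CPM with siCtrl, so that no library of either group came near the other group. COL16A1, a collagen chain, changed by -4.93 ± 0.36, LAMP3, a lysosomal membrane protein, by -4.56 ± 0.26, and CD55, which restrains complement at the cell surface, by -4.07 ± 0.22.

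For 16 genes, chosen after their values were seen, siCtrl cells averaged at least 2 CPM while no siATF4-3 library had more than 3 reads. FGF21 had 0 reads in all 4 siATF4-3 libraries and 40, 33, 28 and 35 reads with siCtrl, which is at least 34.1-fold lower against a floor of 3 reads over the 4 libraries together. SERPINA3, a secreted protease inhibitor, had 3, 0, 0 and 1 reads with siATF4-3, against 353, 319, 242 and 247 with siCtrl. IL2RB, a cytokine receptor chain, had 0, 0, 0 and 2 reads with siATF4-3, against 141, 98, 100 and 90 with siCtrl. All 16 averaged under 1 CPM in DMSO siCtrl cells too, though some were detected there: SERPINA3 had 7 to 18 reads and FGF21 3 to 9 reads per DMSO siCtrl library.

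Among regulators of the ATF4 and CHOP network, 17 of 19 tested members fell and 2 rose, with a median change of -1.15. ATF4 itself, the target of the siRNA, is among those that fell. Of all tested genes, 30.7% were lower and 31.2% higher. TRIB3, a pseudokinase that feeds back on ATF4, had 131, 119, 104 and 150 CPM with siATF4-3, against 701, 646, 719 and 655 CPM with siCtrl (-2.43 ± 0.14, adjusted p = 4.27e-13). DDIT3, which encodes CHOP, had 159, 163, 144 and 169 CPM with siATF4-3, against 259, 273, 309 and 339 CPM with siCtrl. The groups did not overlap, the change was -0.89 ± 0.15 (adjusted p = 1.36e-05), and the gene overlaps MARS on the map, so that reads of the pair may not be told apart. ATF3 changed by -2.25 ± 0.15 and ATF5 by -1.84 ± 0.12. ATF5 overlaps IL4I1, MIR4751 and NUP62 on the map, so that its reads may not be told apart from theirs. The members that rose were C/EBP factors, CEBPD by 0.81 ± 0.12 and CEBPA by 0.31 ± 0.09.

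**Figure D2:**
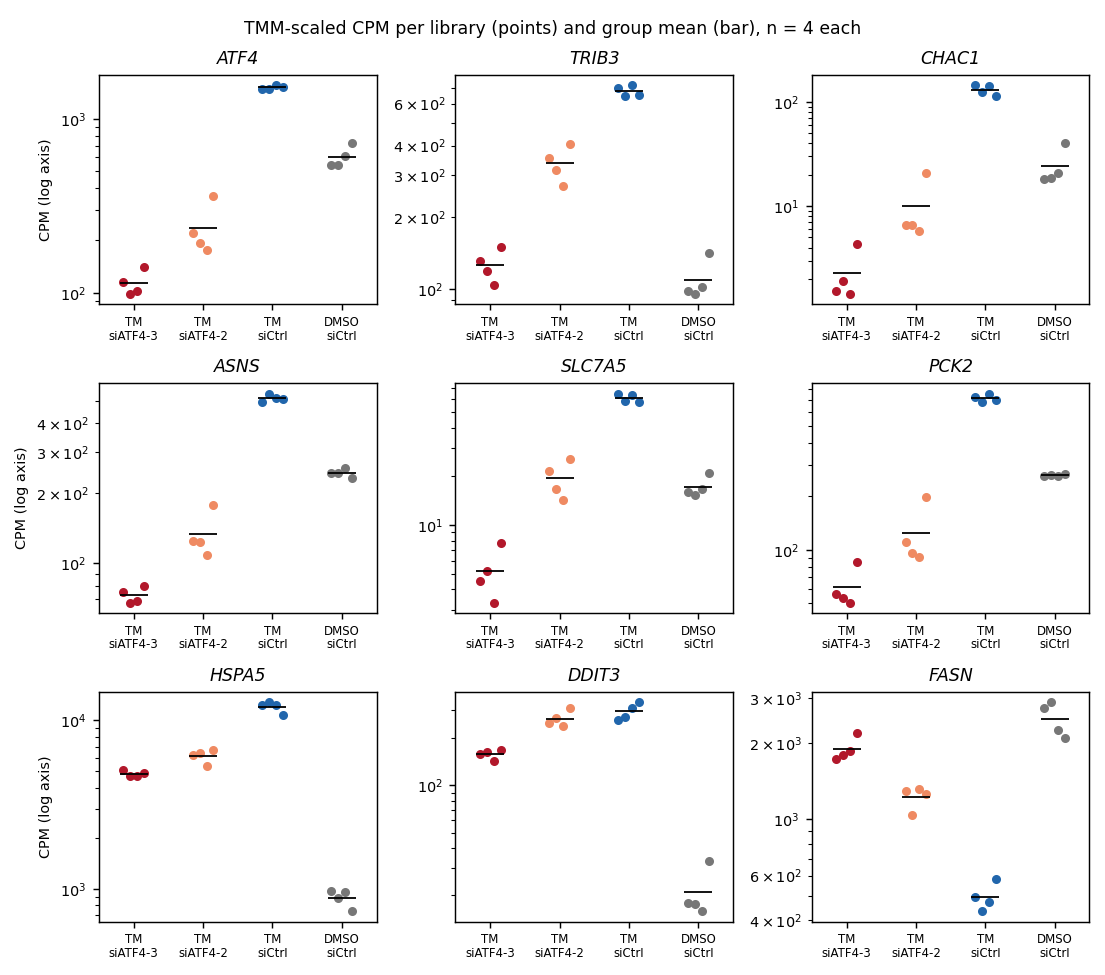
CPM on log axes for 9 genes in each of 4 libraries of TM siATF4-3, TM siATF4-2, TM siCtrl and DMSO siCtrl, with points for libraries and bars for group means. For ATF4 the siATF4-3 libraries lie between 98.5 and 140 CPM and the siCtrl libraries between 1479 and 1562 CPM; for FASN the order of those groups is the other way round.

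Secreted stress targets fell in 7 of 11 tested members and rose in none, against 30.7% lower and 31.2% higher among all tested genes. STC2, a secreted glycoprotein, changed by -2.38 ± 0.15, and ADM2, a peptide hormone of the calcitonin family, by -2.04 ± 0.13. GDF15, a stress cytokine, had 717, 871, 645 and 929 CPM with siATF4-3, against 2487, 2092, 2031 and 1863 CPM with siCtrl (-1.42 ± 0.13). Genes that restrain mTORC1 or answer metabolic stress fell in 11 of 16 tested members and rose in 2. DDIT4, an mTORC1 inhibitor, had 103, 103, 97.9 and 171 CPM with siATF4-3, against 710, 720, 728 and 750 CPM with siCtrl (-2.62 ± 0.23), and SESN2, a leucine sensor, changed by -2.75 ± 0.15. FAM129A, a stress-responsive protein studied in prostate cancer, had 14.4, 12.9, 8.88 and 22.3 CPM with siATF4-3, against 178, 201, 190 and 178 CPM with siCtrl (-3.67 ± 0.21, adjusted p = 5.33e-13). SESN3 and ARRDC4 rose, by 0.63 ± 0.13 and 0.42 ± 0.07. PCK2, the mitochondrial phosphoenolpyruvate carboxykinase, had 56.4, 53.8, 50.5 and 84.9 CPM with siATF4-3, against 721, 682, 758 and 694 CPM with siCtrl (-3.54 ± 0.19).

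Genes of amino acid supply fell more often than all tested genes, of which 30.7% were lower and 31.2% higher. Of 24 tested amino acid transporters, 13 fell and 5 rose, and of 22 synthesis enzymes, 12 fell and 6 rose. The share of synthesis enzymes that rose was near that of all tested genes. SLC7A5, the light chain of a transporter of large neutral amino acids, had 4.51, 5.19, 3.32 and 7.77 CPM with siATF4-3, against 65.0, 58.2, 64.0 and 57.2 CPM with siCtrl (-3.54 ± 0.17, adjusted p = 3.5e-15). SLC6A9, a glycine transporter, changed by -3.81 ± 0.18 and SLC7A11, the cystine antiporter, by -3.15 ± 0.20. ASNS had 75.1, 67.7, 69.1 and 79.7 CPM with siATF4-3, against 495, 538, 516 and 508 CPM with siCtrl (-2.82 ± 0.09, adjusted p = 9.33e-19). The serine pathway enzymes PHGDH (-2.56 ± 0.10) and PSAT1 (-2.52 ± 0.10) fell, while the proline pathway enzymes ALDH18A1 (0.55 ± 0.05) and PYCRL (0.69 ± 0.08) rose.

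Folate enzymes rose in 11 of 19 tested members and fell in 6, where 31.2% of all tested genes were higher and 30.7% lower. Their falls were thus near the share of all genes. The mitochondrial MTHFD2 (-2.15 ± 0.08), SHMT2 (-0.97 ± 0.05) and ALDH1L2 (-1.15 ± 0.15) fell, whereas TYMS, which makes thymidylate, rose by 1.21 ± 0.09 and the folate carrier SLC19A1 by 1.01 ± 0.09. Cytosolic aminoacyl-tRNA synthetases, which charge tRNAs for translation, fell in 13 of 20 members and rose in 6, with a median of -0.70. The share that rose was near that of all tested genes. GARS had 184, 173, 165 and 215 CPM with siATF4-3, against 973, 1034, 1031 and 986 CPM with siCtrl (-2.45 ± 0.11), and CARS changed by -1.77 ± 0.08. Both subunits of the phenylalanyl enzyme went the other way, FARSB by 1.12 ± 0.06 and FARSA by 0.78 ± 0.05. Mitochondrial synthetases rose in 7 of 17 members and fell in 2, with MARS2 at 1.07 ± 0.07.

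**Figure D3:**
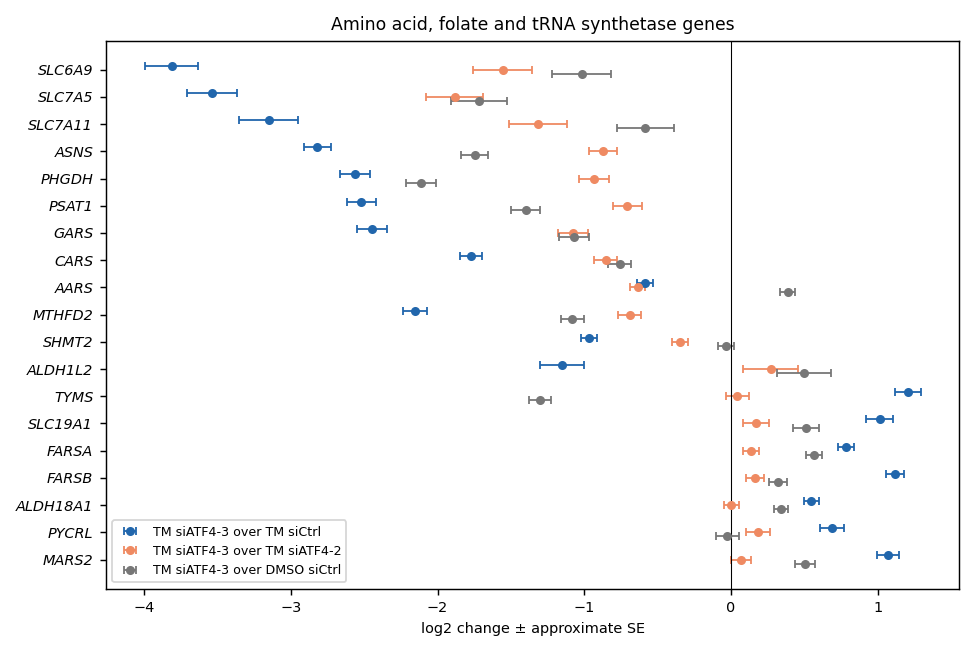
Log2 change ± approximate SE of 19 genes of amino acid transport, synthesis, folate metabolism and tRNA charging, for TM siATF4-3 over TM siCtrl, over TM siATF4-2 and over DMSO siCtrl. SLC7A5 lies at -3.54 against TM siCtrl, and FARSB lies at 1.12.

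Genes of ER folding, degradation and transport were mostly lower than with siCtrl, where 30.7% of all tested genes were lower and 31.2% higher. Chaperones and folding enzymes fell in 23 of 31 members and rose in 3, degradation genes fell in 17 of 24 tested and rose in 7, and ER-Golgi transport genes fell in 36 of 48 and rose in 3 (1 without replicate 1, 2 or 3 of siATF4-3, or without replicate 1 or 4 of siCtrl). HSPA5, the ER chaperone BiP, had 5048, 4655, 4657 and 4869 CPM with siATF4-3, against 12277, 12857, 12417 and 10762 CPM with siCtrl (-1.33 ± 0.09, adjusted p = 3.29e-12). Set against DMSO siCtrl cells, HSPA5 averaged 4807 ± 189 CPM with siATF4-3 and 887 ± 105 CPM with vehicle (SD, n = 4 each), a change of 2.44 ± 0.09 (adjusted p = 7.28e-17 in edgeR's test). Against DMSO siCtrl, where 28.1% of all tested genes were higher, 28 of 31 chaperones, 22 of 24 degradation genes and 46 of 48 transport genes were higher with siATF4-3. HERPUD1 changed by -1.23 ± 0.06 against siCtrl, and DNAJB9, a co-chaperone of BiP, by -1.16 ± 0.06. PDIA4, a disulfide isomerase, rose: it had 2306, 2214, 2152 and 2135 CPM with siATF4-3, against 1362, 1510, 1592 and 1920 CPM with siCtrl (0.46 ± 0.07).

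Of 16 tested sensors and eIF2 kinases, 6 fell and 5 rose (3 without TM siCtrl replicate 2), shares near the 30.7% lower and 31.2% higher of all tested genes. ERN1, which encodes IRE1, changed by -1.44 ± 0.08, ATF6 by -1.19 ± 0.06 and XBP1 by -0.75 ± 0.05. EIF2AK4, the amino acid sensing kinase GCN2, rose by 0.68 ± 0.05. N-glycan and hexosamine enzymes fell in 25 of 38 members and rose in 8. GFPT1, which commits sugar to the hexosamine pathway, had 409, 395, 397 and 408 CPM with siATF4-3, against 809, 893, 846 and 798 CPM with siCtrl (-1.06 ± 0.08).

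Redox, autophagy and lysosome lists were also mostly lower, against 30.7% lower and 31.2% higher among all tested genes. NRF2, glutathione and thioredoxin genes fell in 19 of 25 tested members and rose in 6. NFE2L2, which encodes NRF2, changed by -1.04 ± 0.07, and HMOX1, the inducible heme oxygenase, by -1.80 ± 0.14. FTH1, the ferritin heavy chain, had 1001, 1026, 950 and 1161 CPM with siATF4-3, against 4505, 4067, 3860 and 3835 CPM with siCtrl (-1.98 ± 0.10). Autophagy genes fell in 22 of 30 members and rose in 3: MAP1LC3B, a marker protein of autophagosomes, had 36.7, 34.8, 37.6 and 41.9 CPM with siATF4-3, against 202, 212, 202 and 194 CPM with siCtrl (-2.43 ± 0.12). Lysosomal genes fell in 21 of 30 tested members and rose in 3, with the protease CTSD at -0.97 ± 0.07.

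Among called genes whose groups did not overlap and whose average log2 CPM reached 1, those raised most were led by BMX and TMEFF2. BMX, a cytoplasmic tyrosine kinase, rose by 2.95 ± 0.27, and TMEFF2 is a membrane protein of prostate and brain. BMX averaged 5.66 CPM with siATF4-3 and 0.732 CPM with siCtrl, where it had only 6 to 14 reads per library. Its difference from DMSO siCtrl cells was not called (0.28, adjusted p = 0.208 in edgeR's test). TMEFF2 had 146, 152, 149 and 161 CPM with siATF4-3, against 15.2, 15.3, 19.7 and 36.5 CPM with siCtrl (2.82 ± 0.24, adjusted p = 7.29e-10). SEMA6A, a membrane semaphorin, had 65.8, 64.9, 66.9 and 62.3 CPM with siATF4-3, against 13.6, 13.3, 14.9 and 17.9 CPM with siCtrl (2.13 ± 0.14). SEMA6A also lay above DMSO siCtrl cells, by 1.65 ± 0.13 (adjusted p = 5.95e-11 in edgeR's test), whereas for TMEFF2 that difference was not called (-0.13).

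Fatty acid and triglyceride genes rose in 14 of 23 members and fell in 3 (5 without siATF4-3 replicate 4). Among all tested genes, 31.2% were higher and 30.7% lower. FASN, fatty acid synthase, had 1727, 1789, 1850 and 2187 CPM with siATF4-3, against 493, 435, 472 and 585 CPM with siCtrl (1.93 ± 0.13, adjusted p = 1.83e-11). Androgen-regulated genes rose in 20 of 33 members and fell in 4. KLK3, which encodes prostate-specific antigen, had 820, 783, 837 and 938 CPM with siATF4-3, against 434, 411, 492 and 389 CPM with siCtrl (0.97 ± 0.24, adjusted p = 0.0013). KLK3 lay below its level in DMSO siCtrl cells. It averaged 844 ± 66.4 CPM with siATF4-3 and 2636 ± 233 CPM in DMSO siCtrl cells (SD, n = 4 each). The change was -1.64 ± 0.24 (adjusted p = 3.98e-06 in edgeR's test).

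DNA replication and S-phase genes rose in 39 of 44 members and fell in 1, with a median of 0.64. Among all tested genes, 31.2% were higher and 30.7% lower than with TM siCtrl. MCM2, a subunit of the replicative helicase, had 34.3, 38.5, 36.1 and 55.5 CPM with siATF4-3, against 14.5, 13.7, 14.5 and 21.5 CPM with siCtrl (1.37 ± 0.20, adjusted p = 3.76e-06). In both groups replicate 4 was the highest library. G2/M genes rose in 30 of 45 members and fell in 1 (2 without siCtrl replicate 4), with CDK1, the mitotic kinase, at 0.67 ± 0.06. Against DMSO siCtrl cells, where 4189 of all genes (29.3%) were lower, all 44 S-phase genes and 43 of 45 G2/M genes were lower with siATF4-3. MYC rose by 0.98 ± 0.11, while the CDK inhibitors CDKN2B (-2.11 ± 0.19) and CDKN1A (-0.94 ± 0.17) fell.

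**Figure D4:**
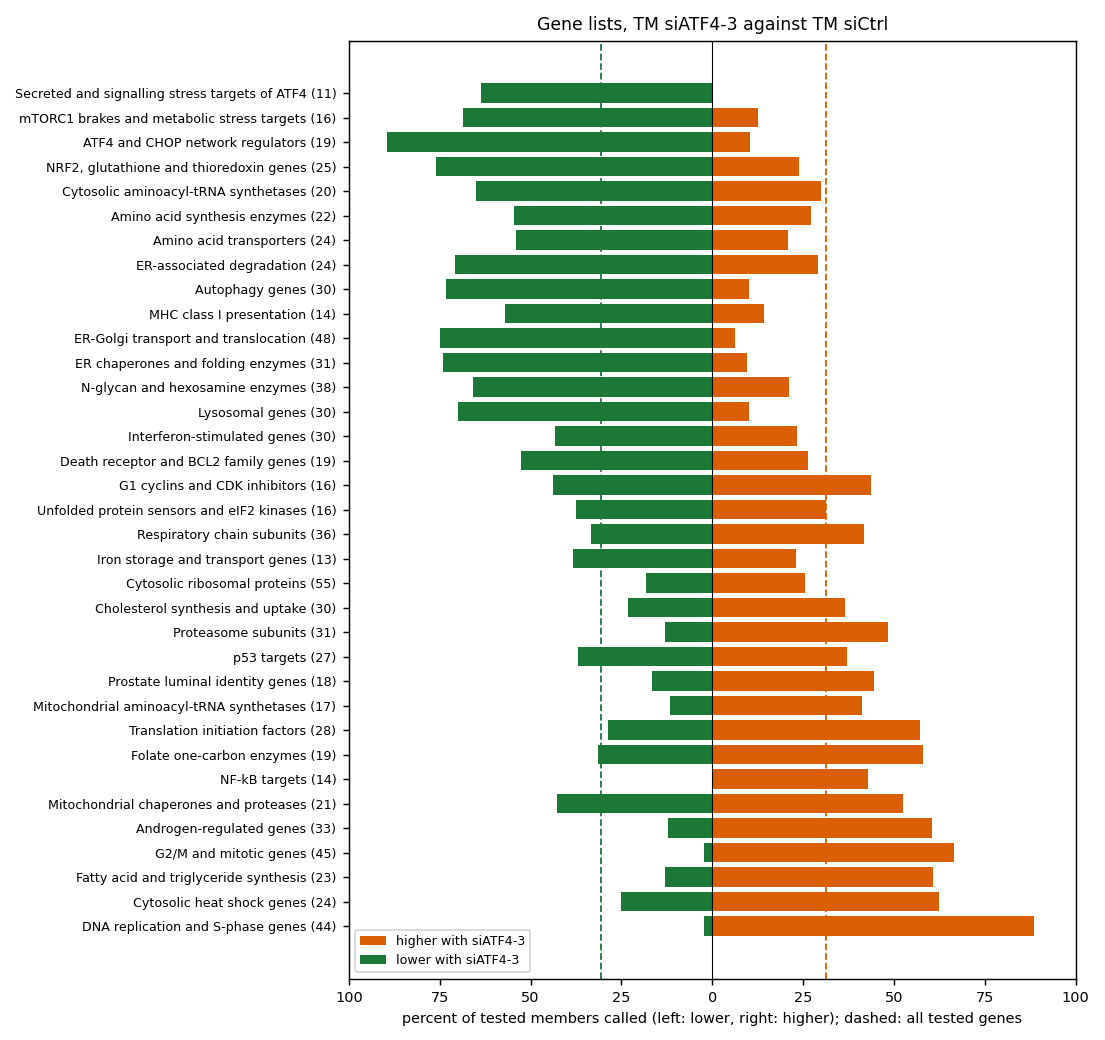
Percent of tested members of 35 gene lists with at least 10 tested members that were called lower (left) or higher (right), TM siATF4-3 against TM siCtrl, with the number tested in brackets and dashed lines at the 30.7% lower and 31.2% higher of all tested genes. DNA replication genes extend furthest to the right, with 39 of 44 members. ATF4 and CHOP network regulators, which include the siRNA target ATF4 itself, extend furthest to the left, with 17 of 19.

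The level in unstressed DMSO siCtrl cells gives these changes a second measure. Those cells differ from TM siATF4-3 cells in both drug and siRNA, and no group had siATF4-3 without tunicamycin. The share of each in a difference thus cannot be told apart. ASNS averaged 72.9 ± 5.57 CPM with siATF4-3 and 245 ± 9.30 CPM in DMSO siCtrl cells (SD, n = 4 each), so that it lay below the unstressed level by edgeR's test (-1.75 ± 0.09, adjusted p = 1.18e-14). PCK2 (-2.10 ± 0.18), SLC7A5 (-1.72 ± 0.19) and CHAC1 (-3.40 ± 0.43) were also below it. For FAM129A, with 14.6 ± 5.61 CPM with siATF4-3 and 18.8 ± 2.96 CPM in DMSO siCtrl cells (SD, n = 4 each), the difference was not called in edgeR's test (adjusted p = 0.21). Without replicate 4 of siATF4-3 it was called, at -0.64 (edgeR adjusted p = 0.0321). DDIT3 stayed above it, with 159 ± 10.8 CPM with siATF4-3 and 21.1 ± 8.10 CPM in DMSO siCtrl cells (SD, n = 4 each), a change of 2.90 ± 0.17 in edgeR's test (adjusted p = 1.25e-12).

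The remaining lists are given by their counts, to be read against 31.2% higher and 30.7% lower among all tested genes. Translation initiation factors rose in 16 of 28 tested members and fell in 8, and ribosomal proteins rose in 14 of 55 (9 with upper-quartile scaling) and fell in 10. Mitochondrial chaperones and proteases rose in 11 of 21 and fell in 9, respiratory chain subunits rose in 15 of 36 and fell in 12, and proteasome subunits rose in 15 of 31 and fell in 4 (2 without siATF4-3 replicate 4 or siCtrl replicate 2). Cholesterol genes rose in 11 of 30 and fell in 7, iron genes rose in 3 of 13 and fell in 5, and luminal identity genes rose in 8 of 18 and fell in 3. G1 cyclins and CDK inhibitors rose in 7 of 16 and fell in 7, 10 of 27 p53 targets were higher and 10 lower, and death receptor and BCL2 family genes rose in 5 of 19 and fell in 10. NF-kB targets rose in 6 of 14 and fell in none (1 without siATF4-3 replicate 4, or without siCtrl replicate 3 or 4), and MHC class I genes rose in 2 of 14 and fell in 8. Of the other marker lists, basal epithelium had 3 of 4 tested members lower, fibroblasts 2 higher and 1 lower of 5 (2 lower without siCtrl replicate 4), and neuroendocrine genes 2 higher and 2 lower of 6 (1 lower without siATF4-3 replicate 1). Endothelium had no call among 2, and leukocytes had none among 2 (1 lower without siATF4-3 replicate 3, or without siCtrl replicate 2 or 4).

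The 2 ATF4 oligonucleotides were set against each other directly. Between them 888 genes (6.2%) were higher and 1221 (8.53%) lower with siATF4-3, of which 18 (0.126%) were higher and 94 (0.657%) lower by at least 2-fold. ATF4 itself averaged 114 ± 19.0 CPM with siATF4-3 and 237 ± 82.4 CPM with siATF4-2 (SD, n = 4 each), a difference of -1.06 ± 0.16 (adjusted p = 6.1e-05 in edgeR's test), which was not called when only those 8 libraries were fitted. CHAC1 (-2.09 ± 0.51), SLC7A5 (-1.88 ± 0.19), FAM129A (-1.91 ± 0.22), TRIB3 (-1.42 ± 0.14), ASNS (-0.87 ± 0.09) and DDIT3 (-0.74 ± 0.15) were all lower with siATF4-3 than with siATF4-2, and CHAC1 lost its call in the fit of 8 libraries. HSPA5 differed by -0.36 ± 0.09 and FASN by 0.62 ± 0.13, while for KLK3 the difference of 0.35 ± 0.24 was not called (adjusted p = 0.379 in edgeR's test), but it was with only those 8 libraries fitted (adjusted p = 0.00371).

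Other genes were higher with siATF4-3 than with siATF4-2. ACAP2, a GTPase-activating protein of endosomes, averaged 87.8 ± 4.62 CPM with siATF4-3, 34.1 ± 7.82 CPM with siATF4-2 and 97.2 ± 3.94 CPM with siCtrl (SD, n = 4 each). The siATF4-3 to siATF4-2 difference was 1.36 ± 0.10, and the siATF4-3 to siCtrl change of -0.15 ± 0.09 was not called (adjusted p = 0.178 in edgeR's test). PLCB1, a phospholipase C, differed by 1.68 between the oligonucleotides. BEST1, an ion channel, differed by -1.84 between the oligonucleotides and overlaps FTH1, so that reads of the pair may not be told apart.

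**Figure D5:**
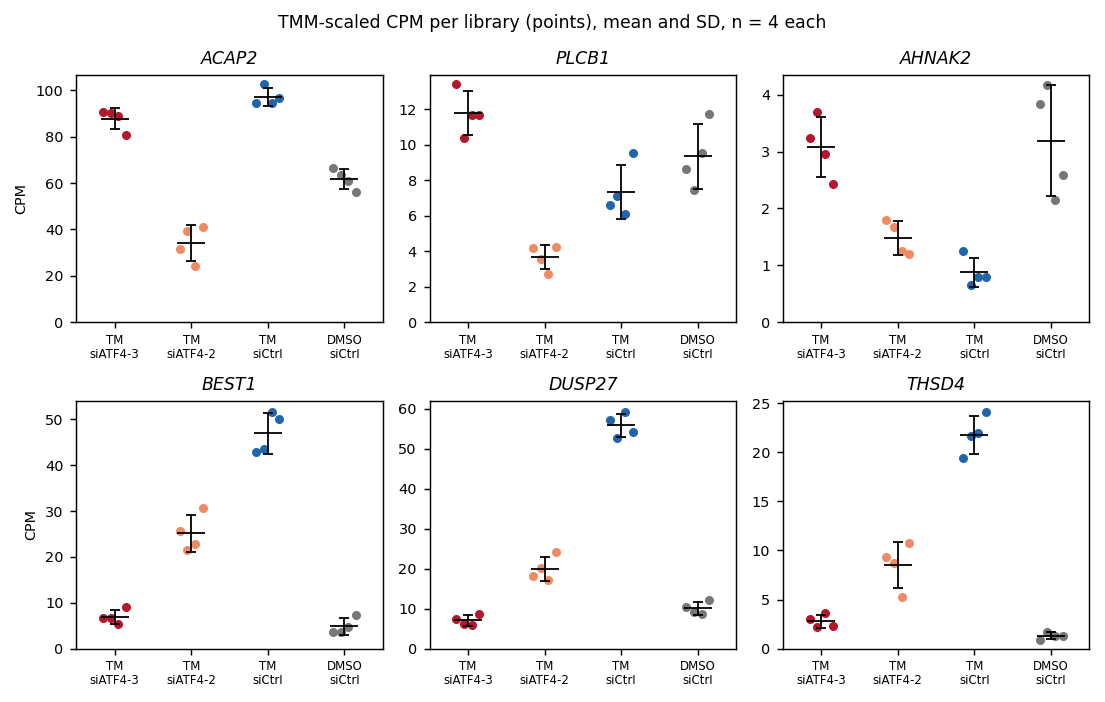
CPM from 0 for 6 genes that differ between the ATF4 oligonucleotides, in each of 4 libraries of TM siATF4-3, TM siATF4-2, TM siCtrl and DMSO siCtrl, with the mean and SD. ACAP2 averages 87.8 CPM with siATF4-3 and 97.2 CPM with siCtrl, while siATF4-2 lies at 34.1 CPM.

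The 4 siATF4-3 libraries did not take the highest and lowest places equally often. Over the 947 genes lower by at least 2-fold, replicate 4 was the highest of the 4 in 436 (46%), against 28.7% of all tested genes, and replicate 3 was the lowest in 369 (39%), against 24.5% of all tested genes. Over the 403 genes higher by at least 2-fold, replicate 3 was the highest in 33% and replicate 4 the lowest in 36.2%, against 25.3% and 32.2% of all tested genes. Replicate 1 was the lowest in 32.8% of these raised genes, against 23.1% of all tested genes, so the raised genes did not mirror the lowered ones. ATF4 was highest in replicate 4 as well, at 140 CPM against 98.5 to 115 CPM in the other 3. Replicate 4 was also highest for ATF4 with siATF4-2 (358 CPM, others 177 to 221) and in DMSO siCtrl cells (723 CPM, others 539.5 to 614). With TM siCtrl, replicate 3 was highest (1562 CPM). Deviations from the group means correlated at r = 0.485 between the replicate 4 libraries of the 2 ATF4 oligonucleotides. What sets replicate 4 apart was not tested.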

How the data were processed

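Raw counts of read pairs per gene (deposited tables) were made by the authors with TopHat2 2.1.0 and featureCounts 1.5.0-p1 on hg19, with DESeq2 1.10.1 also named, per the submitters' processing notes; whether counting used strand is not given in the sources used here, and 4678 genes overlap another gene. Control columns repeated in several tables were identical (20 columns, 0 differing values), and the 1 line without a gene name held 0 counts. The 28 libraries were fitted together by group in edgeR 4.0.16 (R 4.3.3) with TMM factors, edgeR's expression filter (count 10, total 15), and quasi-likelihood tests, with p-values adjusted over 14314 genes. Alternatives were a fit of the compared groups only, other scalings, DESeq2 1.42.0, limma 3.58.1 (voom), no filter, a replicate block and each library left out. The p-values rest on the spread between libraries within groups, pooled over all 28 libraries and not only the compared ones. The labels call the 4 libraries of a group independent experiments. Same-numbered TM siATF4-3 and DMSO siCtrl libraries deviated together from their group means (r = 0.138, 0.147, 0.167 and 0.257, each over 0.1). The numbers may thus pair these groups, but the labels do not say what the numbers mark. The tests printed above used no pairing, and the replicate block was run only as an alternative. No 2 replicates agreed within sampling noise (chi-square per gene 1.69 to 8.03 over 42 pairs). The Wilson intervals on promoter shares cover the sampling of genes only. The approximate SEs come from edgeR's quasi-likelihood fit and include the spread between libraries.

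The members follow from the group labels and not from expression values, but they and the gene lists were settled with earlier results of these data known. Named genes are ATF4, EIF2AK3, FAM129A and DDIT3; the 15 raised and 15 lowered most among called genes at a mean log2 CPM of at least 1, with no overlap and a standard symbol; the 5 and 5 with the largest rise and fall in CPM; 8 and 8 between the oligonucleotides; and up to 4 called members of each of 40 lists. PCK2, KLK3, AARS, ATF3, ATF5, DDIT4, SESN2, GDF15, SLC7A11, PSAT1, SHMT2, XBP1, DNAJB9, HMOX1, NFE2L2, SERPINA3, IL2RB and the snoRNA host genes were named outside that rule, after their values were seen. Promoter sequences are from RefSeq, GRCh38.p14, matched by symbol for 11183 of the 14314 tested genes; no coordinates were converted between builds. Some genes that the rule names are not reported here.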

Additional observations from a re-analysis of the deposited data

Results flagged for a closer look

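In these groups of 4, a library was singled out when its gap to the nearest of the others, as a share of the group's range, exceeded Dixon's 95% value, which chance gives in about 1 of 20 groups; 10 of 176 were. Among TM siATF4-3 libraries, replicate 4 stood above the others for FIBIN (0.7285 CPM, others 0.0711 to 0.179), CHAC1 (4.29, others 1.44 to 1.92), DDIT4 (171.1, others 97.9 to 103) and IL2RB (0.1619, others at 0). It stood below them for ACAP2 (80.95 CPM, others 89.2 to 90.8) and SNHG17 (31.49, others 36.6 to 37.5), and replicate 3 stood above for BMX (6.637, others 5.26 to 5.50). Among TM siCtrl libraries, replicate 4 stood above the others for MCM2 (21.45 CPM, others 13.7 to 14.5) and CDKN2B (12.55, others 9.16 to 9.69). Replicate 2 stood below for CTSD (292.6 CPM, others 343 to 349).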

How the results depend on the processing

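Over the alternatives run (compared groups only, other scalings, DESeq2, limma-voom, no filter, replicate block, each library left out), 3666 of 3688 values of named genes kept their direction and call, 15 lost it, 7 gained one and none reversed. EIF2AK3 passed the threshold against TM siCtrl with only 8 libraries fitted (-0.15), with upper-quartile factors (-0.17), with the block (-0.14) and without TM siCtrl replicate 1 (-0.19). ACAP2 passed it with 8 libraries fitted (-0.15), and so did KLK3 against siATF4-2 (0.36). Against siATF4-2 the fit of 8 libraries lost ATF4 (adjusted p = 0.0541) and CHAC1 (adjusted p = 0.102). Without TM siATF4-3 replicate 4 FIBIN moved to -7.51, LCN2 to -6.27 and IL2RB to -9.59; without replicate 1 SERPINA3 moved to -9.03, and without siATF4-2 replicate 4 CHAC1 differed by -1.45 between the oligonucleotides. Of the gene list counts and medians (those against DMSO siCtrl were added after seeing the data), 1823 kept and 52 moved, among them higher ribosomal protein genes (9 with upper-quartile factors, against 14) and lower fatty acid genes (5 without TM siATF4-3 replicate 4, against 3). The share of lowered genes with the promoter letters was 2.56% over 300 bases and 1.99% over the 250 before the start, a window that is shorter by construction. Among all tested genes with a promoter in the table, the shares over those windows were 1.82% and 1.51%. Same-numbered TM siATF4-3 and TM siCtrl libraries had correlations of 0.059, 0.094, 0.092 and 0.262, and those with siATF4-2 had 0.097, 0.139, 0.193 and 0.485, so not every pair passed 0.1 in either set; replicates 2, 3 and 4 of siATF4-3 correlated best with their own number in both sets, and replicate 1 with number 2. With the replicate block 4720 genes were higher and 4602 lower against TM siCtrl, 1260 higher and 1632 lower against siATF4-2, and 4259 higher and 4443 lower against DMSO siCtrl, where the block changed no call of a named gene. Genes with few reads have fitted changes that depend on the prior count, and the depth does not tell an absent transcript from one below about 3 reads.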

Other observations

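Hosts of small nucleolar RNAs, long RNAs whose introns carry guides for ribosomal RNA modification, form a group that no list above holds, and they were chosen after their values were seen. Of 19 tested, 14 were higher and 2 lower with siATF4-3 than with siCtrl under tunicamycin, where 31.2% of all tested genes were higher and 30.7% lower, with a median log2 change of 0.71 and a range of -0.64 to 1.90. SNHG1 had 167, 167, 189 and 137 CPM with siATF4-3, against 47.9, 48.6, 49.7 and 44.6 CPM with siCtrl (1.79 ± 0.09, edgeR adjusted p = 3.57e-15). SNHG17 had 37.5, 37.0, 36.6 and 31.5 CPM with siATF4-3, against 10.1, 9.51, 10.3 and 8.17 CPM with siCtrl, and SNHG15 changed by 1.78 ± 0.10.
NCL, which encodes the nucleolar protein nucleolin, had 1865, 1807, 1850 and 1737 CPM with siATF4-3, against 886, 919, 956 and 964 CPM with siCtrl (0.96 ± 0.04). Cytosolic heat shock genes rose in 15 of 24 tested members and fell in 6, against the same 31.2% higher and 30.7% lower, with the co-chaperone CHORDC1 at 1.16 ± 0.08. Interferon-stimulated genes fell in 13 of 30 tested members and rose in 7, against 30.7% lower and 31.2% higher among all tested genes, with IFIT2 at -1.73 ± 0.19.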
